A study of Homo sapiens with 9 samples.

Results

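The comparison described here set H1299 cells treated with the siRNA siFOXN3-1 against the same cells treated with a control siRNA (siControl). H1299 is an established line of epithelial-like human non-small cell lung cancer cells. Cells at a density of 30 to 50% received 50 nM siRNA with Lipofectamine RNAiMAX, and the labels call the siFOXN3-1 samples a FOXN3 knockdown and the siControl samples wild type. The members were the 3 samples titled siFOXN3-1 and the 3 titled siControl, 6 of the 9 samples of the series, and the remaining 3 received a second siRNA against the same gene, siFOXN3-2. All 9 samples come from 1 cell line at 1 siRNA dose, and the transfection reagent was common to all of them. Polyadenylated RNA, isolated with TRIzol, was sequenced from NEBNext Ultra libraries that are not stated to keep the strand, so reads of overlapping genes on opposite strands may not be told apart. No label says that the replicates were separate cultures, and p-values therefore reflect no more than sample-to-sample spread, possibly technical.

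FOXN3 belongs to the forkhead family of transcription factors and is known mainly as a transcriptional repressor that recruits co-repressors such as the SIN3 complex to DNA. It has been tied to cell cycle checkpoints and to DNA damage responses. The series title joins it with β-TrCP (gene BTRC), a substrate receptor of SCF ubiquitin ligases, with the kinase RSK2 (gene RPS6KA3), which acts downstream of ERK, and with BRCA1, a scaffold of homologous recombination. The comparison asks which transcripts differ when FOXN3 is lowered by this one siRNA.

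Values are FPKM as the authors deposited them, that is, fragments per kilobase of transcript, scaled to mapped fragments. Tests covered the 12814 of 34789 genes whose mean over the 6 samples reached 1 FPKM, on log2(FPKM + 1) with limma, and a gene was called higher or lower at a Benjamini-Hochberg adjusted p under 0.05. This mean spans both groups, so a gene near 0 in either group can be tested through the other. Fold changes are on this scale, siFOXN3-1 over siControl, and the added 1 FPKM understates the changes of low genes. Group means are given ± SD with n = 3 per group. The whole-read steps of low values placed the depth at 17.5 to 19.1 M fragments in the siFOXN3-1 samples and 18.7 to 19.6 M in the siControl samples. Genes encoded by mitochondrial DNA held 7.27 to 9.02% of the summed FPKM with siFOXN3-1 and 13.2 to 14.2% with siControl. The epithelial keratins KRT8 and KRT18 and the mesenchymal marker VIM were abundant in all 6 samples. The other 4 epithelial markers looked at (KRT19, EPCAM, CDH1 and CLDN7) stayed at or under 0.0733, 0.136, 0.00888 and 0.0687 FPKM with siFOXN3-1, against 0.275, 0.243, 0.00866 and 0.0859 FPKM with siControl. Summed over their lists, 5 immune markers came to 0.27 to 0.422 FPKM with siFOXN3-1 and 0.389 to 0.449 FPKM with siControl, 5 fibroblast markers to 0.542 to 0.814 FPKM with siFOXN3-1 and 0.933 to 1.19 FPKM with siControl, and 4 endothelial markers to 0.375 to 0.537 FPKM with siFOXN3-1 and 0.319 to 0.505 FPKM with siControl.

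FOXN3 itself had 1.28, 1.24 and 1.16 FPKM with siFOXN3-1, against 4.85, 5.25 and 5.00 FPKM with siControl. The groups did not overlap, and the siFOXN3-1 mean was 24.3% of the siControl mean. The log2 fold change was -1.44 (SE 0.0629, adjusted p = 1.38e-06), and voom on recovered reads, which adds no 1 FPKM, gave -2.04. An exact permutation test of FOXN3 (two-sided) returned p = 0.1, the smallest that 3 against 3 samples allow. Being bulk RNA, a lower level in every cell cannot be told apart from loss in some of the cells. FOXN3 (chromosome 14, 89124871 to 89619149, GRCh38) shares 7.54% of its exonic length with genes on the opposite strand.

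The 3 partners of the title moved in both directions. BTRC had 2.14, 2.08 and 1.59 FPKM with siFOXN3-1, against 4.52, 4.58 and 5.25 FPKM with siControl (log2 fold change -0.98, SE 0.0933, adjusted p = 4.95e-05). BRCA1 had 1.77, 1.72 and 1.63 FPKM with siFOXN3-1, against 4.12, 4.30 and 4.2 FPKM with siControl (log2 fold change -0.95, SE 0.0599, adjusted p = 7.09e-06), so each siFOXN3-1 sample lay under each siControl sample for both genes. RPS6KA3 had 18.5, 17.6 and 16.0 FPKM with siFOXN3-1, against 11.5, 12.7 and 12.3 FPKM with siControl (log2 fold change 0.48, SE 0.0656, adjusted p = 3.41e-04) and was higher in every siFOXN3-1 sample.

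Against siControl, 8612 of the 12814 tested genes (67.2%) were called, 2521 (19.7%) higher and 6091 (47.5%) lower. Calls with a log2 fold change of at least 1 were fewer, with 349 genes higher (2.72%) and 561 lower (4.38%). In 9154 genes (71.4%) the 2 groups did not overlap. The median of all log2 fold changes was -0.18, and the high share of lower calls moves with it. Scaling each sample by its median ratio brought that median to -0.00047 and the split to 4198 higher and 4134 lower, and quantile normalization gave a median of -0.03 with 3768 higher and 4331 lower. Small falls, of about that median or less, are therefore ones that median-ratio scaling can turn. In every gene named below as risen or fallen against siControl the groups did not overlap, with the exception of ITGA2. The text gives a list's counts after both scalings where the share of higher genes among its calls moved by over 10 percentage points under either, or where its larger count moved by over 1.5 times. Counts of list members are read against the shares over all tested genes, 19.7% higher and 47.5% lower, and against their median of -0.18.

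**Figure D1:**
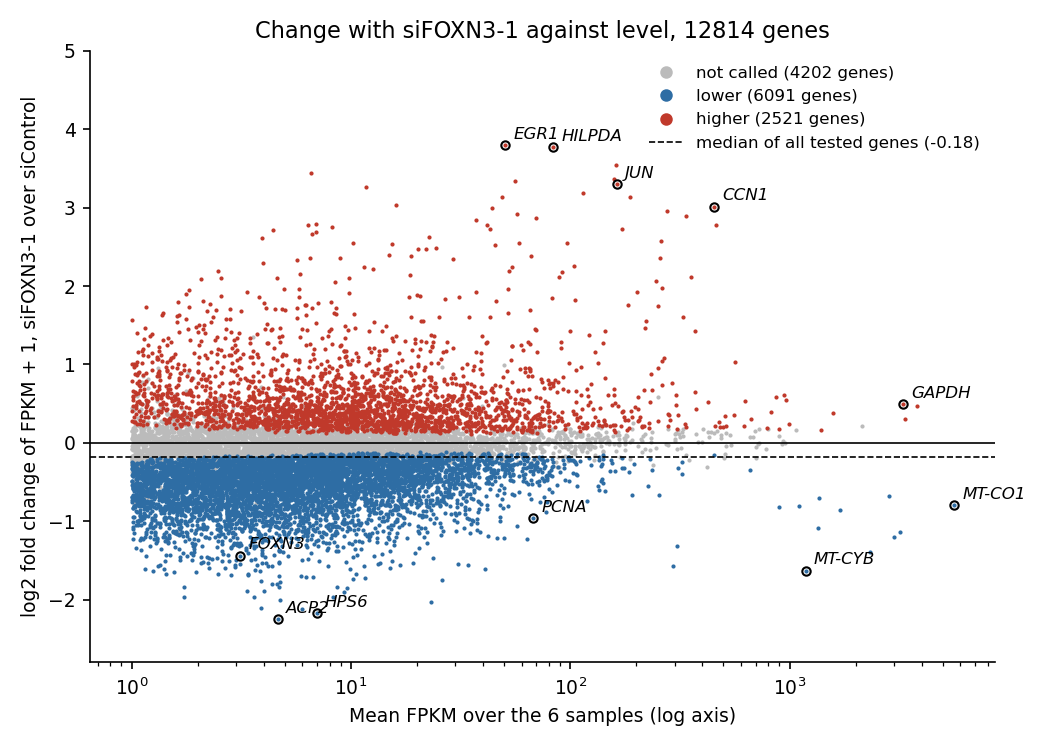
Each point is 1 of the 12814 tested genes, with its mean FPKM over the 6 samples on a log axis and its log2 fold change of siFOXN3-1 over siControl on the other axis. Red genes were called higher, blue genes lower and grey genes not called. The dashed line is the median of -0.18, genes at high levels lie more often above 0, and the mitochondrially encoded MT-CO1 and MT-CYB stand apart at the lower right.

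Among the largest rises were genes that cells switch on within minutes to hours of a growth factor, serum or stress signal. EGR1, a zinc finger transcription factor of this class, had 96.9, 94.7 and 92.9 FPKM with siFOXN3-1, against 4.71, 6.61 and 6.50 FPKM with siControl (log2 fold change 3.80, SE 0.105, adjusted p = 1.63e-07). The AP-1 subunit JUN had 264, 306 and 320.1 FPKM with siFOXN3-1, against 27.1, 29.5 and 31.3 FPKM with siControl. FOS, its usual partner, had 27.4, 31.8 and 29.3 FPKM with siFOXN3-1, against 2.48, 2.78 and 2.97 FPKM with siControl. NR4A2, an orphan nuclear receptor, had 76.7, 79.9 and 81.3 FPKM with siFOXN3-1, against 8.11, 9.91 and 9.23 FPKM with siControl. No siFOXN3-1 sample of these 4 genes came near the siControl range. The 250 bases before and 50 after the EGR1 start are shown because serum response factor binds such promoters at the serum response element, whose matches are in capitals (RefSeq, GRCh38.p14, chr5:138465229-138465528, plus strand).
EGR1: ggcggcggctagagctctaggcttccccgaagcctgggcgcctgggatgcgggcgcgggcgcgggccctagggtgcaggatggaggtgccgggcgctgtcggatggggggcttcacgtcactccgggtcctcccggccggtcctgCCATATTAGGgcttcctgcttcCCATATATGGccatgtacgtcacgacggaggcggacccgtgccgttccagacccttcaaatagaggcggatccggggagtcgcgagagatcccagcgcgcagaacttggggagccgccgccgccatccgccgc
Both matches lie within this window. Over all tested genes with a promoter in the table (9278 of 12814), 0.981% had such a match, against 1.29% of all 27305 promoters of the table. Among genes with a log2 fold change of at least 1, it was in 7 of 181 promoters of called-higher genes (3.87%) and in 0 of 365 promoters of called-lower genes. In the AP-1, EGR, NR4A, KLF, dual-specificity phosphatase and IER, BTG, TOB and ZFP36 lists described below, it was in 1 of 38 promoters (2.63%). That promoter was the EGR1 promoter shown. A match is a string of letters and not evidence of binding.

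Of 12 tested AP-1 genes 11 rose and 0 fell (median log2 fold change 1.76), where 19.7% of all tested genes were called higher and 47.5% lower. Besides JUN (3.30) and FOS (3.03) these were the small MAF proteins MAFF (2.55), MAFK (1.22) and MAFG (0.71), the stress factor ATF3 (2.36), and JUNB, FOSB, JUND, FOSL1 and FOSL2 at 2.26, 1.77, 1.76, 1.55 and 0.38. FOSL1 was the most abundant Fos-family gene, at 332 ± 20.6 FPKM with siFOXN3-1 and 113 ± 5.75 FPKM with siControl. BATF3 was not called (0.01). All 3 tested EGR and NR4A genes rose (median 3.0), NR4A1 with 12.2 ± 0.522 FPKM with siFOXN3-1 and 1.09 ± 0.172 FPKM with siControl. Of 12 KLF factors (median 0.55) 9 rose, led by KLF6 (72.0 ± 1.61 FPKM with siFOXN3-1 and 19.8 ± 0.619 FPKM with siControl) and KLF4, a pluripotency and epithelial factor (15.9 ± 1.16 FPKM with siFOXN3-1 and 5.11 ± 0.109 FPKM with siControl), and 1, KLF2, fell (-0.30), a call that median-ratio scaling removed.

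Genes that shut such signals off were among them. Dual-specificity phosphatases remove the activating phosphates of MAP kinases, and 7 of 9 tested members rose while 1 fell (DUSP14, -0.25), with a median of 0.60. Calls were 7 higher and 0 lower after median-ratio scaling, and 8 higher and 0 lower after quantile normalization. DUSP5, which acts on ERK in the nucleus, had 283, 292 and 295 FPKM with siFOXN3-1, against 25.5, 29 and 27.1 FPKM with siControl. DUSP1 averaged 123 ± 14.7 FPKM with siFOXN3-1 and 15.9 ± 0.421 FPKM with siControl. DUSP6, the cytoplasmic ERK phosphatase, moved less (0.56) and DUSP4 was not called (0.03). The Sprouty genes SPRY2 and SPRY4, inhibitors of receptor tyrosine kinase signalling, rose by 1.43 and 1.19, whereas SPRY1 (-0.41), SPRED1 (-0.44) and SPRED3 (-1.07) fell. The list had 2 higher and 3 lower of 6 (median -0.25). ERRFI1, a direct inhibitor of the EGF receptor, had 595, 587 and 553 FPKM with siFOXN3-1, against 119.8, 141 and 138 FPKM with siControl. The EGF family list had 3 higher and 4 lower of 9 (median -0.08), with AREG (2.40 ± 0.144 FPKM with siFOXN3-1 and 0.370 ± 0.0531 FPKM with siControl) and HBEGF (9.22 ± 0.681 FPKM with siFOXN3-1 and 3.31 ± 0.166 FPKM with siControl) higher and TGFA (26.3 ± 1.94 FPKM with siFOXN3-1 and 49.4 ± 1.79 FPKM with siControl) lower, and among the receptors ERBB2 (-0.82) and ERBB3 (-0.57) fell while EGFR was not called (-0.08).

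The RNA-binding proteins of the ZFP36 family bind AU-rich elements and speed the decay of short-lived transcripts. ZFP36 had 279, 311 and 309 FPKM with siFOXN3-1, against 22.8, 25.1 and 26.8 FPKM with siControl. ZFP36L1 had 479, 497 and 492 FPKM with siFOXN3-1, against 58.7, 65.4 and 63.4 FPKM with siControl. ZFP36L2 was not called (0.12). Across the IER, BTG, TOB and ZFP36 genes 8 of 12 rose and 0 fell (median 0.46). IER3, a stress-induced survival gene, had 603, 568 and 621 FPKM with siFOXN3-1, against 82.0, 80.9 and 75.9 FPKM with siControl. The antiproliferative genes BTG1 and BTG3 rose by 1.86 and 1.16, and IER2, itself a standard early gene, was not called (0.13). IER3 and IER2 share 26.5% and 30.8% of their exonic length with genes on the opposite strand, and DUSP6 shares 40.5%.

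Secreted factors followed. Of 9 tested cytokine and chemokine genes 7 rose and 1 fell (median 0.79, with 7 higher and 1 lower after median-ratio scaling and 7 higher and 0 lower after quantile normalization). LIF, a cytokine of the interleukin-6 family, had 65.7, 76.6 and 78.7 FPKM with siFOXN3-1, against 8.28, 10.9 and 10.6 FPKM with siControl. GDF15, a stress-induced TGF-β relative, averaged 14.2 ± 0.992 FPKM with siFOXN3-1 and 2.68 ± 0.0877 FPKM with siControl. CXCL2 averaged 107 ± 16.8 FPKM with siFOXN3-1 and 67.4 ± 2.89 FPKM with siControl. ANGPTL4, an inhibitor of lipoprotein lipase that hypoxia and lipids induce, averaged 429.7 ± 22.6 FPKM with siFOXN3-1 and 82.9 ± 3.60 FPKM with siControl, although the growth factor list as a whole was divided (7 of 17 higher, 6 lower, median 0.14, with 9 higher and 5 lower after median-ratio scaling and 10 higher and 5 lower after quantile normalization), with VEGFA at 0.36 and FGF5 at -1.05. CCN1 and CCN2 are matricellular genes and targets of YAP and of serum response factor. CCN1 had 763, 805 and 842 FPKM with siFOXN3-1, against 94.1, 98.7 and 103 FPKM with siControl. CCN2 averaged 167 ± 3.32 FPKM with siFOXN3-1 and 27.7 ± 0.701 FPKM with siControl. Of the 17 YAP and TEAD genes 8 rose and 3 fell (median 0.15, with 11 higher and 2 lower after median-ratio scaling and 8 higher and 2 lower after quantile normalization), ANKRD1 and LATS2 among the higher (2.1 and 1.01), while YAP1 (-0.15) and WWTR1 (-0.10) were not called. Actin genes were mixed, with 10 of 23 higher and 6 lower (median 0.12, with 13 higher and 5 lower after median-ratio scaling and 11 higher and 10 lower after quantile normalization). FHL2, a LIM-domain cofactor, was at 1.28, ACTG1 at 0.38, and the adhesion protein vinculin (VCL) fell, with 24.3, 25.1 and 23.6 FPKM with siFOXN3-1, against 47.2, 53.8 and 51.2 FPKM with siControl.

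In the MYC network (5 higher and 4 lower of 10, median 0.11), MYC averaged 144 ± 17.0 FPKM with siFOXN3-1 and 32.5 ± 0.744 FPKM with siControl, and its antagonists MXD1 (1.78) and MXI1 (1.3) rose as well, while MXD4 (-0.83) and MGA (-0.55) fell. Of 12 NF-κB genes 7 rose, all by less than 1, from RELA (0.21) to RELB (0.82), and 1 fell (TNIP2, -0.27), with a median of 0.23. Calls were 10 higher and 0 lower after median-ratio scaling, and 10 higher and 1 lower after quantile normalization. The list of inhibitor-of-differentiation and E proteins had 4 higher and 2 lower of 9 (median -0.01, with 6 higher and 0 lower after median-ratio scaling and 5 higher and 1 lower after quantile normalization), with ID4 at 1.25, ID1 at -0.32, and ID2 and ID3 not called (-0.02 and -0.03). HES1, a Notch effector, rose by 1.33.

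**Figure D2:**
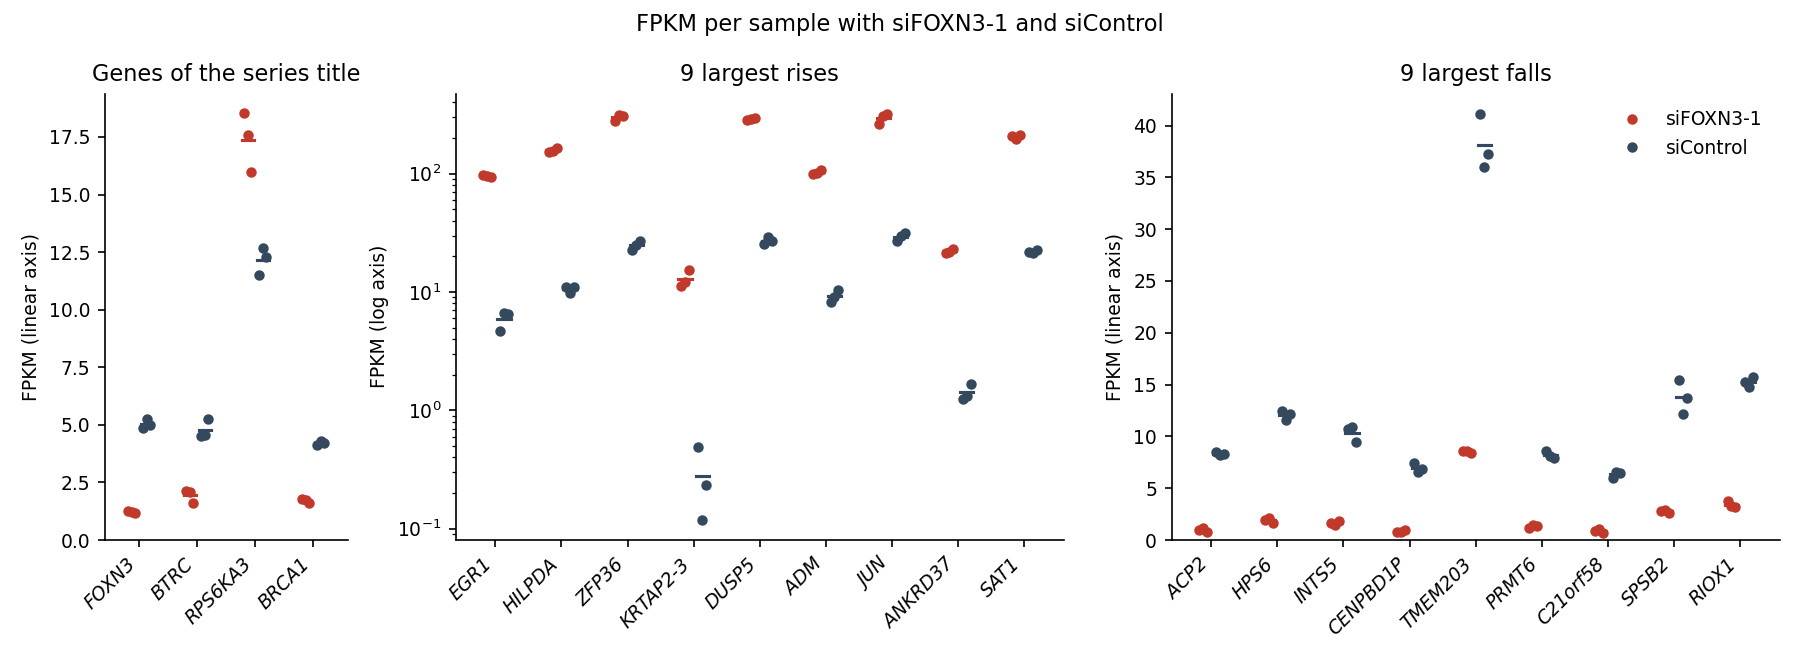
FPKM in each of the 3 siFOXN3-1 samples (red, left) and the 3 siControl samples (dark, right), with short lines at the group means, for the 4 genes of the series title and the 9 largest rises and the 9 largest falls in log2 fold change. The outer panels have linear axes from 0 and the middle panel has a log axis, and in none of the genes shown did the groups overlap.

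Genes of the hypoxia programme rose almost as a block. Hypoxia-inducible factor, a heterodimer of an oxygen-labile HIF-α and ARNT, binds the core letters ACGTG in such promoters. Of 25 tested hypoxia-induced genes 23 rose and 0 fell, with a median of 0.94. HILPDA, which blocks lipolysis at lipid droplets, had 152, 157 and 163 FPKM with siFOXN3-1, against 11, 9.86 and 10.9 FPKM with siControl. ADM, the gene of the vasodilator peptide adrenomedullin, had 98.7, 102 and 107 FPKM with siFOXN3-1, against 8.31, 9.10 and 10.4 FPKM with siControl. ANKRD37, an ankyrin repeat gene, had 21.5, 21.7 and 23.2 FPKM with siFOXN3-1, against 1.24, 1.33 and 1.68 FPKM with siControl, and its promoter is shown with its ACGTG matches in capitals (RefSeq, GRCh38.p14, chr4:185396591-185396890, plus strand).
ANKRD37: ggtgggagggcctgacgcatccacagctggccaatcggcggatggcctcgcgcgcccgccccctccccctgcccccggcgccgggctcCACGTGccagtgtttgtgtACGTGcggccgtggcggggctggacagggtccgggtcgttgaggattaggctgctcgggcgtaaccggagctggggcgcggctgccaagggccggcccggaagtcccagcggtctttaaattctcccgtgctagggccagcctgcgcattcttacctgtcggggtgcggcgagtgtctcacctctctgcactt
The first run of capitals is a palindrome that matches on both strands. ACGTG on either strand was in 48.6% of 35 promoters of the hypoxia and glycolysis lists, in 27.6% of those of all tested genes and in 21.6% of all promoters of the table. It was in 29.3% of the promoters of genes called higher by at least 1 and in 23.3% of those called lower by at least 1.

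The transcriptional repressor BHLHE40 averaged 102 ± 4.18 FPKM with siFOXN3-1 and 12.6 ± 1.20 FPKM with siControl. The glucose transporter SLC2A3 averaged 445 ± 18.5 FPKM with siFOXN3-1 and 74.3 ± 5.53 FPKM with siControl. The mTORC1 inhibitor DDIT4 averaged 419.8 ± 25.8 FPKM with siFOXN3-1 and 106 ± 3.06 FPKM with siControl and stanniocalcin (STC1) 320.4 ± 15 FPKM with siFOXN3-1 and 83.9 ± 9.96 FPKM with siControl. ANKRD37 shares 35.2% of its exonic length with UFSP2 on the opposite strand, and DDIT4 shares 41.2% with DDIT4-AS1. The 2 list members that were not called were PFKFB4 (0.09) and KDM4B (0.05). The HIF and oxygen sensor list had 2 higher and 2 lower of 7 (median -0.06, with 4 higher and 2 lower after median-ratio scaling and 3 higher and 2 lower after quantile normalization), with HIF1A (-0.06) and ARNT (0.14) not called, EPAS1, the gene of HIF-2α, at 0.48, the prolyl hydroxylase EGLN1, itself hypoxia-induced, at 0.36, and VHL at -0.34. Of 16 glycolytic enzyme genes 11 rose and 1 fell (median 0.45, with 14 higher and 1 lower after median-ratio scaling and 9 higher and 3 lower after quantile normalization). Hexokinase 2 (HK2) averaged 52.5 ± 1.20 FPKM with siFOXN3-1 and 16.6 ± 1.65 FPKM with siControl. LDHA averaged 366 ± 11.3 FPKM with siFOXN3-1 and 215 ± 6.70 FPKM with siControl. GAPDH, one of the most abundant transcripts, had 3755, 3839 and 3946 FPKM with siFOXN3-1, against 2781, 2701 and 2695 FPKM with siControl. PKM (-0.01), TPI1 (0.12), PGAM1 (0.13) and PFKM (-0.09) were not called and PFKL fell (-0.46). In the polyamine list (4 higher and 3 lower of 12, median 0.09, with 6 higher and 2 lower after median-ratio scaling and 4 higher and 4 lower after quantile normalization), SAT1, which acetylates spermidine and spermine and so starts polyamine breakdown, had 209, 197 and 212 FPKM with siFOXN3-1, against 21.6, 21.2 and 22.6 FPKM with siControl, and the spermine synthase SMS and the oxidase SMOX rose by 0.87 and 0.69, while ODC1, the entry enzyme of polyamine synthesis, was not called (0.18).

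Stress chaperones rose together and sterol genes divided. Of 16 heat shock genes 14 rose and 2 fell, with a median of 0.56. Calls were 14 higher and 0 lower after median-ratio scaling, and 12 higher and 3 lower after quantile normalization. HSPA1A and HSPA1B, near-identical inducible HSP70 genes between which reads can be split, both rose. HSPA1A averaged 112 ± 5.60 FPKM with siFOXN3-1 and 20.6 ± 0.917 FPKM with siControl. HSPA1B averaged 87.1 ± 2.76 FPKM with siFOXN3-1 and 18.3 ± 0.786 FPKM with siControl. The constitutive HSPA8 averaged 758 ± 12 FPKM with siFOXN3-1 and 372 ± 8.73 FPKM with siControl. HSP90AA1 rose by 0.59. The falls of HSF1 (-0.20) and DNAJA1 (-0.21) were of the size of the overall shift, and median-ratio scaling turned their sign (0.014 for HSF1 and 0.0082 for DNAJA1). Of 16 genes of the NRF2 antioxidant system 12 rose (median 0.30), OSGIN1 the most (2.47), then SQSTM1 (0.81) and TXNRD1 (0.68), and KEAP1, the inhibitor of NRF2, was the 1 that fell (16.2 ± 1.45 FPKM with siFOXN3-1 and 29.3 ± 1.37 FPKM with siControl). In the endoplasmic reticulum HSPA5, the chaperone BiP, averaged 365 ± 21.7 FPKM with siFOXN3-1 and 172 ± 4.87 FPKM with siControl. DNAJB9 rose by 1.44, while CALR (-0.67) and EDEM3 (-0.72) fell (10 higher and 7 lower of 25, median 0.05, with 14 higher and 6 lower after median-ratio scaling and 11 higher and 7 lower after quantile normalization). In the ATF4 and CHOP list (7 higher and 4 lower of 15, median 0.14, with 11 higher and 3 lower after median-ratio scaling and 10 higher and 5 lower after quantile normalization) PPP1R15A (1.86) and DDIT3, the gene of CHOP (1.49, 31.6% of its exonic length shared on the opposite strand), rose, ATF4 was not called (-0.02), and CHAC1 (-0.99), ATF5 (-0.83) and TRIB3 (-0.66) fell.

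Of 26 genes of cholesterol synthesis and its control 12 rose and 8 fell (median 0.06, with 17 higher and 6 lower after median-ratio scaling and 14 higher and 7 lower after quantile normalization). INSIG1, which holds the SREBP complex in the endoplasmic reticulum, had 295, 302 and 306 FPKM with siFOXN3-1, against 45.6, 44.4 and 44.0 FPKM with siControl. HMGCS1, the synthase that feeds the pathway, averaged 90.3 ± 3.16 FPKM with siFOXN3-1 and 18.3 ± 0.110 FPKM with siControl. The methyl sterol oxidase MSMO1 averaged 100.5 ± 7.88 FPKM with siFOXN3-1 and 16.4 ± 0.954 FPKM with siControl. In the opposite direction went SREBF1, a sterol regulatory factor (36.9 ± 2.03 FPKM with siFOXN3-1 and 78.2 ± 1.17 FPKM with siControl), and the enzymes LSS (-1.08) and TM7SF2 (-1.38). In fatty acid synthesis 7 genes rose and 5 fell of 19 (median -0.04, with 10 higher and 2 lower after median-ratio scaling and 9 higher and 5 lower after quantile normalization), none by as much as 1, with ACSL4 at 0.79 and SCD at -0.35. Serine and one-carbon enzymes had 13 lower and 2 higher of 18 (median -0.38, with 4 higher and 7 lower after median-ratio scaling and 3 higher and 9 lower after quantile normalization). The fall was largest for MAT2A, which makes S-adenosylmethionine (29.7 ± 2.55 FPKM with siFOXN3-1 and 70.0 ± 2.17 FPKM with siControl), and PSPH, the last enzyme of serine synthesis (7.01 ± 0.273 FPKM with siFOXN3-1 and 17.3 ± 1.19 FPKM with siControl), while MTHFD2 rose (0.59), a gene that shares 33.2% of its exonic length with SLC4A5 on the opposite strand. Amino acid transporters had 4 higher and 7 lower of 17 (median -0.17, with 6 higher and 4 lower after median-ratio scaling and 5 higher and 5 lower after quantile normalization), SLC38A2 at 0.96 and SLC38A10 at -1.23. The metallothionein MT1X rose by 1.24 and the zinc transporter SLC30A6 was at -1.03, in a list with 5 higher and 10 lower of 20 (median -0.09, with 9 higher and 6 lower after median-ratio scaling and 7 higher and 6 lower after quantile normalization). Of the arrestin-domain genes (1 higher and 2 lower of 3, median -0.41, with 1 higher and 2 lower after median-ratio scaling and 1 higher and 1 lower after quantile normalization), ARRDC3 rose by 1.15, while ARRDC1 (-0.41) and ARRDC2 (-0.42) fell.

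DNA replication genes were called lower far more often than higher. The MCM proteins form the helicase that opens origins, loaded in G1 and activated with CDC45 and the GINS complex, and all 15 tested members of this list fell, with a median of -0.76. Under median-ratio scaling 10 of them were called lower and 0 higher. MCM2 had 21.1, 22.6 and 24.4 FPKM with siFOXN3-1, against 48.5, 47.9 and 46.4 FPKM with siControl. MCM6 had 23, 23.6 and 24.3 FPKM with siFOXN3-1, against 49.3, 48.0 and 47.0 FPKM with siControl. For both genes each siFOXN3-1 sample lay under each siControl sample, and the log2 fold changes were -1.04 and -1.0. The MCM6 promoter is shown with its matches to TTTGGCGC, an E2F motif, in capitals (RefSeq, GRCh38.p14, chr2:135876394-135876693, minus strand).
MCM6: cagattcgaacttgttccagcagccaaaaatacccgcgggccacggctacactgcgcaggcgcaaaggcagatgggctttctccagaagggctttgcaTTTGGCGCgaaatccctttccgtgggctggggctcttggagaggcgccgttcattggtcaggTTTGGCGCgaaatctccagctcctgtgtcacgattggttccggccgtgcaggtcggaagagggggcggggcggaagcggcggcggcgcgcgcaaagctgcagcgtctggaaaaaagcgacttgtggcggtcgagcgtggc
TTTGGCGC on either strand was in 7 of 49 promoters (14.3%) of the replication lists, in 1.15% of those of all tested genes and in 0.659% of all promoters of the table. It was in 0.552% of the promoters of genes called higher by at least 1 and in 1.10% of those called lower by at least 1.

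Among the 41 origin, polymerase, clamp and nucleotide genes 28 fell and 1, the ribonucleotide reductase subunit RRM2, rose (41.3 ± 1.15 FPKM with siFOXN3-1 and 27.6 ± 1.52 FPKM with siControl), with a median of -0.36. Calls were 5 higher and 19 lower after median-ratio scaling, and 4 higher and 25 lower after quantile normalization. The clamp PCNA averaged 45.6 ± 3.47 FPKM with siFOXN3-1 and 89.7 ± 7.93 FPKM with siControl. The flap nuclease FEN1 averaged 15.2 ± 0.223 FPKM with siFOXN3-1 and 28.7 ± 0.832 FPKM with siControl. ORC1 (-0.01), ORC4 (-0.03) and RFC4 (-0.03) were not called. In the E2F family 10 of 13 fell (median -0.40, with 3 higher and 7 lower after median-ratio scaling and 3 higher and 7 lower after quantile normalization), E2F1 (-0.56), E2F2 (-0.88), TFDP1 (-0.61) and the pocket protein RBL1 (-0.98) among them, while the repressor E2F7 rose (16.1 ± 1.04 FPKM with siFOXN3-1 and 9.29 ± 0.379 FPKM with siControl).

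Cyclins, CDKs and their inhibitors went the other way, with 12 of 21 higher and 4 lower (median 0.19). The CDK inhibitor CDKN1A, known as p21, had 95.7, 103 and 102 FPKM with siFOXN3-1, against 30.3, 29.6 and 31.2 FPKM with siControl. CDKN1C rose by 1.44. CCND1 averaged 119.6 ± 3.63 FPKM with siFOXN3-1 and 75.5 ± 3.94 FPKM with siControl, CCNE1 rose by 0.54 and CDK1 by 0.78. CDKN2C (9.30 ± 0.313 FPKM with siFOXN3-1 and 28.9 ± 2.23 FPKM with siControl), CCNE2 (-0.83), CDK4 (-0.63) and CDC25B (-0.43) fell, CDK4 and CCNE2 sharing 43.2% and 37.1% of their exonic length with opposite-strand genes. Mitotic genes were divided (11 higher, 16 lower of 35, median -0.12, with 15 higher and 12 lower after median-ratio scaling and 11 higher and 14 lower after quantile normalization), with CDC20, AURKA and UBE2C at 0.58, 0.47 and 0.61 and BIRC5, the gene of survivin, at -0.96. At the kinetochore 18 of 34 genes fell and 3 rose (median -0.23, with 10 higher and 14 lower after median-ratio scaling and 8 higher and 15 lower after quantile normalization). HJURP, the chaperone of the centromeric histone, rose (84.6 ± 0.806 FPKM with siFOXN3-1 and 35.0 ± 1.02 FPKM with siControl), and the single-exon gene CENPB fell (11.4 ± 1.46 FPKM with siFOXN3-1 and 40.5 ± 2.28 FPKM with siControl). Kinesins (3 higher, 14 lower of 30, median -0.17, with 10 higher and 10 lower after median-ratio scaling and 5 higher and 10 lower after quantile normalization) and cohesin and condensin genes (1 higher, 12 lower of 21, median -0.21, with 7 higher and 7 lower after median-ratio scaling and 3 higher and 10 lower after quantile normalization) had mixed calls.

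Replication-dependent histone genes, whose normal transcripts end in a stem-loop and not in a poly(A) tail, were mostly higher in these poly(A) libraries. Of 37 tested members (65 in the table) 25 rose and 4 fell, with a median of 0.84. Calls were 26 higher and 2 lower after median-ratio scaling, and 26 higher and 1 lower after quantile normalization. On the deposited scale 16 histone genes rose by at least 1. H2BC21 had 88.1, 90.6 and 87.6 FPKM with siFOXN3-1, against 8.81, 9.92 and 9.01 FPKM with siControl. H2BC11 averaged 66.0 ± 1.74 FPKM with siFOXN3-1 and 8.33 ± 0.882 FPKM with siControl. H2AC8 averaged 49.3 ± 7.15 FPKM with siFOXN3-1 and 8.88 ± 1.51 FPKM with siControl. H4C3 fell (2.61 ± 0.800 FPKM with siFOXN3-1 and 6.79 ± 2.24 FPKM with siControl). HIST2H2AA3 and HIST2H2AA4 are near-identical copies, and their reads may have been split between them. The linker histone gene H1-2, also on this list, averaged 399 ± 34.1 FPKM with siFOXN3-1 and 95.4 ± 11 FPKM with siControl. The H2BC21 promoter is shown with CCAAT and its reverse complement in capitals (RefSeq, GRCh38.p14, chr1:149886633-149886932, minus strand).
H2BC21: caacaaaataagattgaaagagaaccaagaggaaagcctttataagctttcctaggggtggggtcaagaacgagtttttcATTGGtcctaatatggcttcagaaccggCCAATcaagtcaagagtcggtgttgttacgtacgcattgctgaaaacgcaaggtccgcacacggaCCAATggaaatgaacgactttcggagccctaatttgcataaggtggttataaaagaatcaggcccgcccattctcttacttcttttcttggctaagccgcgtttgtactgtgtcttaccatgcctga
CCAAT on either strand was in 84.4% of 32 histone promoters, in 37.2% of those of all tested genes and in 35.7% of all promoters of the table. TTTCGCGC, another E2F motif, was in 31.3% of the histone promoters, in 1.14% of those of all tested genes and in 0.546% of all promoters of the table. Among genes called higher and lower by at least 1, CCAAT was in 45.3% and 36.4% of promoters, and TTTCGCGC in 1.66% and 0.822%.

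In each of the 7 DNA repair and checkpoint lists more members fell than rose, and each had a larger lower share than the 47.5% of all tested genes. In the BRCA1 complexes 9 of 12 fell and 1, UIMC1 (RAP80), rose (0.29), with a median of -0.36. BRCC3, the deubiquitinase of the BRCA1-A complex, had 2.55, 2.26 and 2.39 FPKM with siFOXN3-1, against 6.96, 7.04 and 6.87 FPKM with siControl. PALB2, the bridge to BRCA2, averaged 0.988 ± 0.114 FPKM with siFOXN3-1 and 2.78 ± 0.277 FPKM with siControl. BRCA2 averaged 0.937 ± 0.111 FPKM with siFOXN3-1 and 2.17 ± 0.215 FPKM with siControl. The Holliday junction resolvase GEN1 averaged 0.505 ± 0.119 FPKM with siFOXN3-1 and 2.47 ± 0.0466 FPKM with siControl. The helicase RECQL4 averaged 6.81 ± 0.475 FPKM with siFOXN3-1 and 16.4 ± 0.755 FPKM with siControl. EME1, partner of MUS81, averaged 4.71 ± 0.136 FPKM with siFOXN3-1 and 11.4 ± 0.374 FPKM with siControl. EXO1 (-0.18) was not called. Of 13 Fanconi anaemia genes 9 fell (median -0.56, with 1 higher and 9 lower after median-ratio scaling and 3 higher and 9 lower after quantile normalization), FAAP100 (-1.16) and FANCL, the ligase subunit (-0.87), among them, and UBE2T, its E2 enzyme, rose (0.47).

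In end joining 12 of 19 genes fell (median -0.36, with 4 higher and 9 lower after median-ratio scaling and 3 higher and 11 lower after quantile normalization), TP53BP1 averaging 4.19 ± 0.311 FPKM with siFOXN3-1 and 8.36 ± 0.794 FPKM with siControl with 28.7% of its exonic length shared on the opposite strand, while the Ku genes XRCC5 (0.04) and XRCC6 (0.07) were not called. Base excision and mismatch repair had 18 lower and 2 higher of 23 (median -0.33, with 4 higher and 11 lower after median-ratio scaling and 4 higher and 12 lower after quantile normalization), PMS2 at -0.99, UNG at -0.73 and PARP2 at 0.37. Nucleotide excision repair and TFIIH had 13 lower and 5 higher of 21 (median -0.28, with 7 higher and 9 lower after median-ratio scaling and 4 higher and 8 lower after quantile normalization), and the kinase module CDK7, CCNH and MNAT1 was on the higher side (0.65, 0.62 and 0.44). Among checkpoint and fork genes 15 of 19 fell (median -0.41, with 4 higher and 11 lower after median-ratio scaling and 3 higher and 10 lower after quantile normalization). TIMELESS, of the fork protection complex, had 9.70, 10.4 and 10.9 FPKM with siFOXN3-1, against 28.4, 29 and 29.1 FPKM with siControl. MDC1, the scaffold that reads γH2AX, had 5.69, 5.37 and 5.17 FPKM with siFOXN3-1, against 14.2, 16.4 and 15.6 FPKM with siControl. WEE1 (0.80) and RNF168 (0.71) rose, and CHEK1 (-0.02) and CHEK2 (0.03) were not called.

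**Figure D3:**
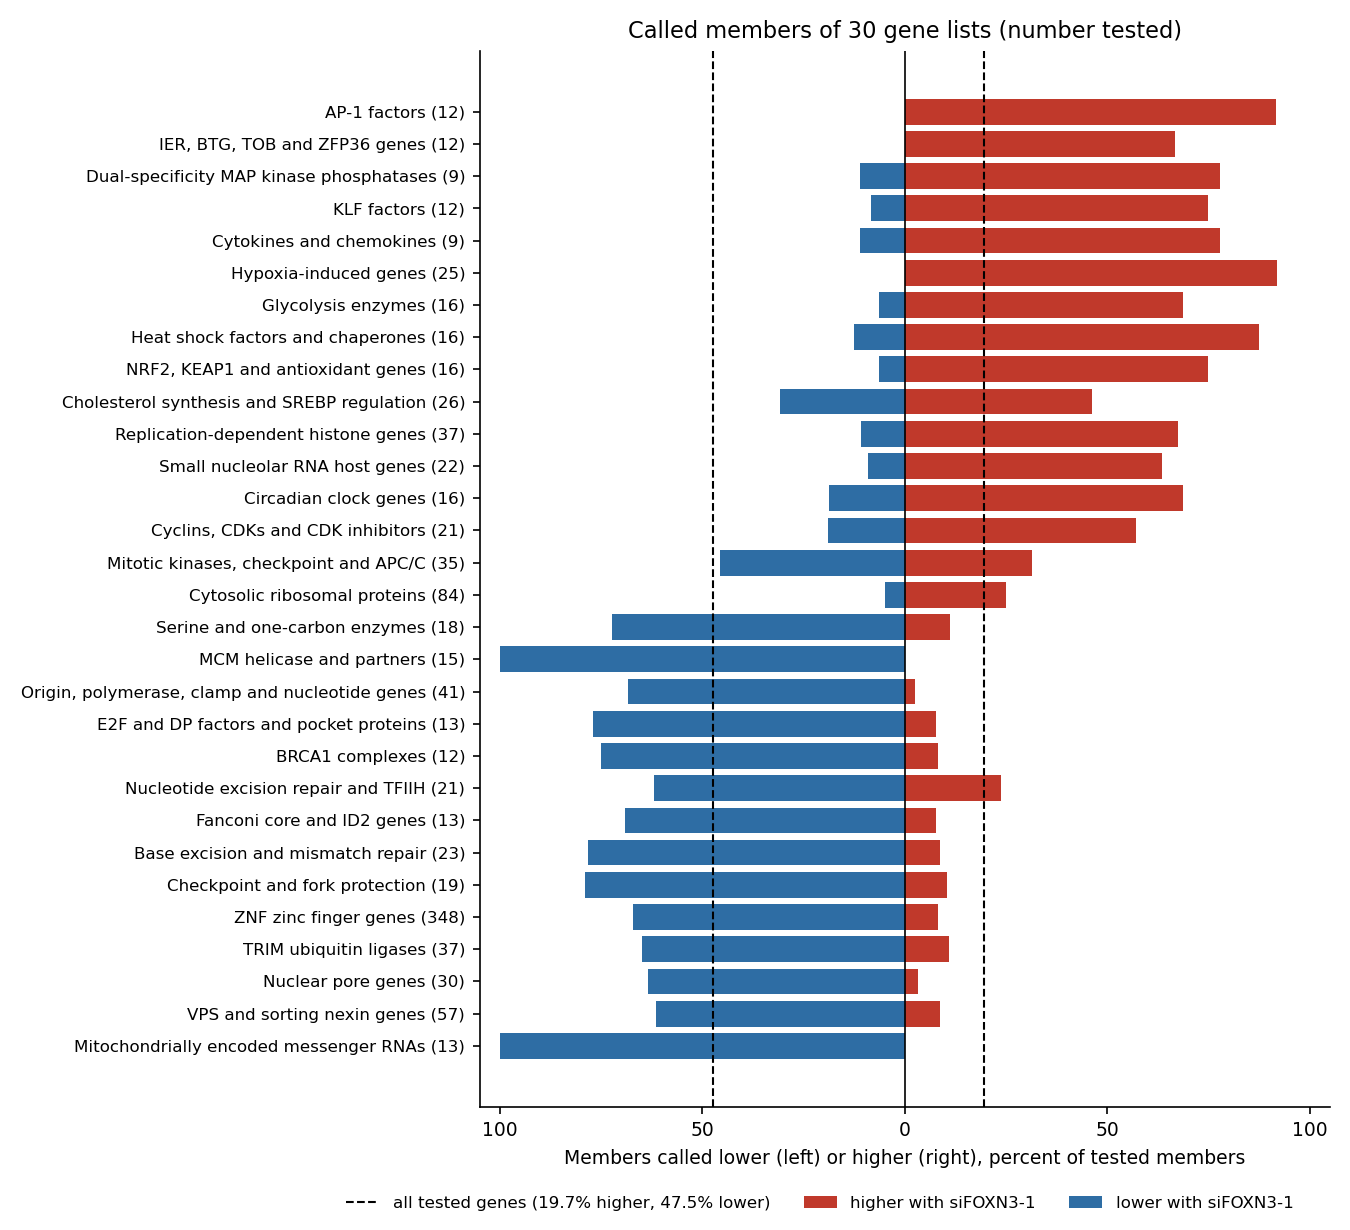
Bars give the percentage of tested members called higher (right, red) or lower (left, blue) with siFOXN3-1 for 30 of the 86 gene lists, with the number tested in brackets. Dashed lines mark all tested genes, 19.7% higher and 47.5% lower. The lists drawn were picked by hand. Of those drawn, signal-induced, hypoxia and chaperone lists lie on the right, and replication, repair and mitochondrially encoded genes on the left. Signal-induced lists that are not drawn include divided ones, such as the Sprouty and EGF family lists, and ones with mostly higher calls, such as the NF-κB genes.

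All 13 mitochondrially encoded messenger RNAs fell, with a median of -1.09, and 13 were called lower after median-ratio scaling and 12 after quantile normalization. They come from 1 genome and are transcribed together, so they are not independent. MT-CYB, the catalytic subunit of complex III, had 618, 605 and 516 FPKM with siFOXN3-1, against 1767, 1870.5 and 1735 FPKM with siControl. MT-CO1 of complex IV had 4128, 4298 and 3864 FPKM with siFOXN3-1, against 6948, 7252 and 7154 FPKM with siControl. MT-ND3 of complex I averaged 149.7 ± 50.8 FPKM with siFOXN3-1 and 437 ± 93.8 FPKM with siControl. The ribosomal RNA MT-RNR2 went the other way, with 4578, 4577 and 4092 FPKM with siFOXN3-1, against 3047, 3225 and 3263 FPKM with siControl, though ribosomal RNA is captured incompletely in poly(A) libraries. Nuclear genes of the same complexes moved less. Complex I had 3 higher and 13 lower of 36 and a median of -0.13. Calls were 8 higher and 6 lower after median-ratio scaling, and 4 higher and 9 lower after quantile normalization. Complexes II to V had 4 higher and 16 lower of 47 and a median of -0.10. Calls were 15 higher and 3 lower after median-ratio scaling, and 3 higher and 20 lower after quantile normalization. Of 24 mitochondrial transcription and RNA factors 15 fell (median -0.24, with 6 higher and 6 lower after median-ratio scaling and 6 higher and 6 lower after quantile normalization), MTERF4 (-0.97, 51.0% of its exonic length shared on the opposite strand) and FASTK (-0.90) among them. The polymerase POLRMT (-0.07) was not called, while POLG2 (0.77) and TFB2M (0.18) rose. SLC25 carriers had 3 higher and 19 lower of 37 (median -0.18, with 12 higher and 11 lower after median-ratio scaling and 8 higher and 15 lower after quantile normalization), SLC25A25 at 1.06 and SLC25A10, which shares 46.6% of its exonic length with an overlapping gene on the same strand, at -0.90.

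Lists of RNA and protein machinery differed in their counts. Of 84 cytosolic ribosomal protein genes 21 rose and 4 fell, with a median of 0.11. Calls were 61 higher and 1 lower after median-ratio scaling, and 8 higher and 25 lower after quantile normalization. After quantile normalization the median also changed sign (-0.09), and after median-ratio scaling it was 0.33. RPL22L1, a ribosomal paralog, was far from the rest at 16.2 ± 1.58 FPKM with siFOXN3-1 and 4.46 ± 0.332 FPKM with siControl. RPS26, among the 4 lower, was at 0.0015 under median-ratio scaling, against -0.22 as deposited. Mitochondrial ribosomal proteins had 12 higher and 33 lower of 76 (median -0.16, with 26 higher and 20 lower after median-ratio scaling and 16 higher and 27 lower after quantile normalization), MRPS6 at 1.12 and MRPL53, with 45.2% of its exonic length shared on the same strand, at -1.47. Host genes of small nucleolar RNAs, spliced transcripts with ribosome-like promoters, rose in 14 of 22 cases, SNHG5 averaging 211 ± 15.6 FPKM with siFOXN3-1 and 77.7 ± 5.99 FPKM with siControl, and 2 fell (median 0.40). Initiation factors had 18 higher and 12 lower of 49 (median 0.10, with 28 higher and 4 lower after median-ratio scaling and 16 higher and 11 lower after quantile normalization), with EIF4A2 at 0.76 and the translational repressor EIF4EBP2 at -1.08. Aminoacyl-tRNA synthetases had 3 higher and 20 lower of 35 (median -0.19, with 11 higher and 10 lower after median-ratio scaling and 4 higher and 13 lower after quantile normalization), the mitochondrial AARS2 averaging 3.46 ± 0.124 FPKM with siFOXN3-1 and 12.2 ± 0.647 FPKM with siControl. RNA polymerase I and biogenesis genes had 10 higher and 18 lower of 44 (median -0.05, with 22 higher and 15 lower after median-ratio scaling and 16 higher and 15 lower after quantile normalization), and UBTF, the factor that opens ribosomal DNA, averaged 6.43 ± 0.540 FPKM with siFOXN3-1 and 19.1 ± 0.143 FPKM with siControl.

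Splicing factors of the SRSF family had 7 lower and 1 higher of 11 (median -0.28, with 3 higher and 5 lower after median-ratio scaling and 2 higher and 7 lower after quantile normalization), SRSF6 at -1.01 and SRSF2, with 36.7% of its exonic length shared on the opposite strand, at -0.82. Integrator and Mediator had 8 higher and 26 lower of 47 (median -0.19, with 14 higher and 14 lower after median-ratio scaling and 13 higher and 14 lower after quantile normalization). INTS5 stood far below the others, with 1.62, 1.45 and 1.79 FPKM with siFOXN3-1, against 10.7, 10.9 and 9.49 FPKM with siControl, and the kinase CDK8 and cyclin CCNC rose (0.64 and 0.36). Nuclear pore genes fell in 19 of 30 cases (median -0.28, with 9 higher and 12 lower after median-ratio scaling and 6 higher and 14 lower after quantile normalization), and on the deposited scale NUP58 alone rose (18.2 ± 1.25 FPKM with siFOXN3-1 and 7.31 ± 0.176 FPKM with siControl). DEAD and DEAH box helicases had 6 higher and 25 lower of 47 (median -0.20, with 18 higher and 18 lower after median-ratio scaling and 11 higher and 21 lower after quantile normalization), and DDX28, a single-exon gene of the mitochondrial ribosome, averaged 0.662 ± 0.163 FPKM with siFOXN3-1 and 4.32 ± 0.705 FPKM with siControl. Proteasome genes had 5 higher and 16 lower of 45 (median -0.07, with 19 higher and 10 lower after median-ratio scaling and 8 higher and 21 lower after quantile normalization). F-box genes had 7 higher and 30 lower of 52 (median -0.26, with 13 higher and 20 lower after median-ratio scaling and 14 higher and 20 lower after quantile normalization), with FBXO9 and FBXO43 at -1.11 and -1.10 beside BTRC. USP deubiquitinases had 10 higher and 21 lower of 44 (median -0.14, with 15 higher and 13 lower after median-ratio scaling and 19 higher and 16 lower after quantile normalization), and TRIM ligases 4 higher and 24 lower of 37 (median -0.36, with 7 higher and 19 lower after median-ratio scaling and 6 higher and 16 lower after quantile normalization), TRIM26 at -1.18 and TRIM32 at -1.05.

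Among transcription and chromatin genes the zinc fingers were the largest group. Of 348 tested ZNF genes 234 fell and 29 rose, with a median of -0.37. Calls were 54 higher and 185 lower after median-ratio scaling, and 64 higher and 150 lower after quantile normalization. On the deposited scale 26 ZNF genes fell by at least 1. ZNF629 averaged 1.39 ± 0.0611 FPKM with siFOXN3-1 and 7.34 ± 0.949 FPKM with siControl. ZNF302 averaged 4.87 ± 0.322 FPKM with siFOXN3-1 and 18.3 ± 0.810 FPKM with siControl. In the other direction ZNF165 averaged 10.3 ± 0.817 FPKM with siFOXN3-1 and 1.53 ± 0.192 FPKM with siControl. Under median-ratio scaling the median was -0.22. ZBTB factors had 6 higher and 16 lower of 33 (median -0.17, with 12 higher and 12 lower after median-ratio scaling and 13 higher and 11 lower after quantile normalization), ZBTB42 at -1.64 and ZBTB11 at 0.85. Of 8 arginine methyltransferases 6 fell and 0 rose (median -0.44, with 1 higher and 4 lower after median-ratio scaling and 0 higher and 5 lower after quantile normalization). PRMT6, a nuclear enzyme that methylates histone H3, had 1.18, 1.41 and 1.31 FPKM with siFOXN3-1, against 8.63, 8.14 and 7.87 FPKM with siControl, while PRMT1 (-0.06) and CARM1 (-0.03) were not called. Lysine methyltransferases and demethylases had 7 higher and 20 lower of 42 (median -0.14, with 16 higher and 15 lower after median-ratio scaling and 12 higher and 14 lower after quantile normalization), with KDM7A (1.11) and KDM6B (0.82) up and KDM4D (-1.12) and EHMT2, also called G9a (-1.10), down.

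Forkhead genes other than FOXN3 went both ways, with 8 higher and 8 lower of 19 tested (median -0.05, with 9 higher and 6 lower after median-ratio scaling and 8 higher and 4 lower after quantile normalization), FOXN3 counted among the lower. FOXO3 averaged 14.8 ± 0.595 FPKM with siFOXN3-1 and 8.84 ± 1.15 FPKM with siControl. FOXC1 averaged 7.59 ± 0.239 FPKM with siFOXN3-1 and 4.60 ± 0.278 FPKM with siControl. The paralog FOXN2 rose by 0.34. FOXM1, a driver of mitotic genes, averaged 25.5 ± 0.427 FPKM with siFOXN3-1 and 38.4 ± 2.56 FPKM with siControl. The single-exon gene FOXS1 averaged 0.818 ± 0.167 FPKM with siFOXN3-1 and 4.86 ± 0.852 FPKM with siControl, and FOXE1, another, averaged 0.684 ± 0.141 FPKM with siFOXN3-1 and 3.18 ± 0.0875 FPKM with siControl. The SIN3 and HDAC co-repressors through which FOXN3 is known to act had 4 higher and 11 lower of 23 (median -0.16, with 8 higher and 4 lower after median-ratio scaling and 5 higher and 7 lower after quantile normalization), HDAC9 at 0.93, HDAC1 at -0.36 and HDAC3 not called (0.01). Both strands of short forkhead-type strings were counted in promoters. GTAAACA was in 2.21% of promoters of genes called higher by at least 1, in 1.92% of those called lower by at least 1, in 2.27% over all tested genes and in 3.41% of all promoters of the table. GACGC was in 46.4%, 55.3%, 54.4% and 35.1% of the same 4 sets.

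Membrane traffic lists differed from one another. VPS and sorting nexin genes had 35 lower and 5 higher of 57 (median -0.26, with 14 higher and 24 lower after median-ratio scaling and 12 higher and 24 lower after quantile normalization), VPS18 averaging 3.62 ± 0.191 FPKM with siFOXN3-1 and 10.5 ± 0.518 FPKM with siControl. SNX5 averaged 20.6 ± 1.33 FPKM with siFOXN3-1 and 13.0 ± 0.571 FPKM with siControl. BLOC and HPS genes, needed for lysosome-related organelles, had 10 lower and 3 higher of 19 (median -0.34, with 6 higher and 9 lower after median-ratio scaling and 4 higher and 8 lower after quantile normalization), and HPS6 was one of the largest falls of all, with 1.96, 2.13 and 1.62 FPKM with siFOXN3-1, against 12.5, 11.5 and 12.2 FPKM with siControl. RAB GTPases had 17 higher and 17 lower of 44 (median -0.03, with 22 higher and 8 lower after median-ratio scaling and 21 higher and 11 lower after quantile normalization), RAB3A at 1.17 and RAB26 at -1.40. Autophagy and lysosome genes had 18 higher and 19 lower of 58 (median -0.02, with 30 higher and 13 lower after median-ratio scaling and 23 higher and 16 lower after quantile normalization). The autophagy genes MAP1LC3B and GABARAPL1 rose (0.56 and 0.72). ACP2, a lysosomal acid phosphatase, had the largest fall of all tested genes on this scale, with 0.961, 1.13 and 0.820 FPKM with siFOXN3-1, against 8.49, 8.21 and 8.31 FPKM with siControl (log2 fold change -2.25, SE 0.0724, adjusted p = 3.58e-07).

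At the cell surface, several matrix proteases rose within a divided list (12 higher and 10 lower of 24, median 0.15). The collagenase MMP1 averaged 39.8 ± 4.45 FPKM with siFOXN3-1 and 5.61 ± 0.299 FPKM with siControl. MMP10 averaged 12.7 ± 0.537 FPKM with siFOXN3-1 and 1.17 ± 0.483 FPKM with siControl. PLAUR, the urokinase receptor, averaged 177 ± 17.1 FPKM with siFOXN3-1 and 67.2 ± 0.627 FPKM with siControl. LOXL1 fell (-1.26). Integrins and laminins had 6 higher and 7 lower of 21 (median -0.08, with 10 higher and 5 lower after median-ratio scaling and 6 higher and 4 lower after quantile normalization), ITGA5, the fibronectin receptor chain, at 0.68, ITGA3 at -0.62 and LAMA5 at -0.99. Of 8 collagens 1 rose and 4 fell (median -0.19, with 1 higher and 2 lower after median-ratio scaling and 2 higher and 3 lower after quantile normalization). Guidance genes had 7 higher and 15 lower of 30 (median -0.26, with 9 higher and 12 lower after median-ratio scaling and 10 higher and 10 lower after quantile normalization), SEMA7A (1.58) and EPHA2 (1.21) up and PLXNA1 (-1.17) down. Of 10 tested genes of epithelial and mesenchymal state 6 rose (median 0.20), TWIST1 (0.80), SNAI1 (0.66) and ZEB1 (0.61) the most, and FN1, fibronectin, fell (2.87 ± 0.146 FPKM with siFOXN3-1 and 5.66 ± 0.458 FPKM with siControl). The small rise of KRT18 (0.33) was -0.0047 after quantile normalization.

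Signalling pathways gave mixed counts. TGF-β and SMAD genes had 5 higher and 11 lower of 22 (median -0.22), TGIF1 at 1.07, SKIL at -0.80 and the latency protein LTBP2 at -1.12. Notch genes had 7 higher and 5 lower of 20 (median 0.11, with 13 higher and 3 lower after median-ratio scaling and 12 higher and 2 lower after quantile normalization), and Wnt genes 7 higher and 11 lower of 29 (median -0.03, with 13 higher and 9 lower after median-ratio scaling and 12 higher and 9 lower after quantile normalization), with the Wnt antagonist DKK1 at 1.17 and the receptor FZD1 at -1.31. Interferon response genes had 3 higher and 14 lower of 25 (median -0.31, with 7 higher and 10 lower after median-ratio scaling and 4 higher and 10 lower after quantile normalization). IFIT3 averaged 0.622 ± 0.215 FPKM with siFOXN3-1 and 2.61 ± 0.455 FPKM with siControl, STAT2 fell by 0.75 and the RNA sensor RIGI was not called (0.13). Apoptosis genes had 7 higher and 15 lower of 30 (median -0.16, with 10 higher and 10 lower after median-ratio scaling and 9 higher and 10 lower after quantile normalization), with the survival gene MCL1 averaging 389 ± 6.27 FPKM with siFOXN3-1 and 116 ± 7.97 FPKM with siControl and the death adaptors FADD and TRADD at -1.15 and -1.25, FADD with 54.9% of its exonic length shared on the opposite strand. Clock genes rose in 11 of 16 cases and fell in 3 (median 0.37, with 12 higher and 2 lower after median-ratio scaling and 12 higher and 1 lower after quantile normalization). PER1 averaged 42.1 ± 1.75 FPKM with siFOXN3-1 and 6.69 ± 0.547 FPKM with siControl. NR1D1, a repressor of the clock loop, averaged 25.8 ± 0.0282 FPKM with siFOXN3-1 and 4.07 ± 0.234 FPKM with siControl. CLOCK was not called (-0.11) and NPAS2 fell (-0.54).

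After ACP2 and HPS6 came INTS5, CENPBD1P, TMEM203, PRMT6, C21orf58, SPSB2, RIOX1, C22orf46P, CCDC71, LRRC45, LINC02870, DOLK and PSKH1, with log2 fold changes down to -1.80. TMEM203, a small membrane protein gene, had 8.60, 8.60 and 8.40 FPKM with siFOXN3-1, against 41.1, 36.0 and 37.2 FPKM with siControl. RIOX1, a ribosomal oxygenase, had 3.73, 3.25 and 3.15 FPKM with siFOXN3-1, against 15.3, 14.8 and 15.8 FPKM with siControl. DOLK, the dolichol kinase of glycosylation, had 3.63, 3.02 and 2.98 FPKM with siFOXN3-1, against 13.8, 12.7 and 15.6 FPKM with siControl. HPS6, TMEM203, RIOX1 and DOLK have 1 exon.

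Some genes lay near 0 in one group. Counting only called genes with a symbol, 28 were under 0.5 FPKM on average in siControl and at least 2 FPKM with siFOXN3-1, and the reverse held for 32. Such genes were tested only through the group in which they were higher. KRTAP2-3, which has close paralogs among the keratin-associated proteins, had 11.3, 12 and 15.4 FPKM with siFOXN3-1, against 0.489, 0.119 and 0.234 FPKM with siControl. H2BC18 had 4.52, 5.05 and 4.59 FPKM with siFOXN3-1, against 0.218, 0.326 and 0.224 FPKM with siControl, and the long non-coding RNA LINC00659 had 3.29, 3.25 and 3.91 FPKM with siFOXN3-1, against 0.198, 0.193 and 0.0946 FPKM with siControl. In the other direction LINC02870 had 0.231, 0.108 and 0.224 FPKM with siFOXN3-1, against 2.81, 3.04 and 3.96 FPKM with siControl. HRCT1 had 0.496, 0.462 and 0.361 FPKM with siFOXN3-1, against 3.32, 3.34 and 3.82 FPKM with siControl, and HK2-DT, the divergent transcript beside HK2, had 0.157, 0.206 and 0.171 FPKM with siFOXN3-1, against 2.85, 1.99 and 3.07 FPKM with siControl. HK2-DT fell while HK2 rose.

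The share of called genes differed with gene structure. Among protein-coding genes with 1 exon in every annotated transcript (194 tested) 23 (11.9%) rose by at least 1 and 47 (24.2%) fell by at least 1, while over all tested genes these shares were 2.72% and 4.38%. Most of the higher ones were histone genes such as H2BC21, and JUN, JUNB and HSPA1B were also among them. The lower ones included HPS6, TMEM203, CENPB, IRF2BP1 and SEPHS2. This class also counts the 13 mitochondrially encoded messenger RNAs, which are not independent, and 7 of them fell by at least 1. Shares without the histone and mitochondrial genes were not computed. With 2 exons the shares were 7.27% higher and 9.39% lower, with 3 to 5 exons 3.85% and 4.55%, and with over 20 exons 0.264% higher (4 genes) and 2.77% lower (42 genes). Large changes were commonest, in both directions, in genes with few exons.

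The exonic GC content went with the direction. Over 5 equal groups of protein-coding genes from low to high GC content, the share called lower was 36.4, 40.5, 46.1, 57.7 and 66.2%, the share called higher 27.3, 24.2, 21, 14.3 and 11.4%, and the median log2 fold change -0.06, -0.09, -0.15, -0.26 and -0.36. Level went the other way. Genes with a mean of 1 to 5 FPKM had a median of -0.27 and 52.2% lower calls, genes over 100 FPKM a median of 0.11 with 40.4% higher and 15.9% lower. Chromosomes 16, 22 and 20 had the lowest medians of protein-coding genes (-0.31, -0.30 and -0.28), and chromosomes 21 and 6 the highest (-0.08 each). Whether GC content, level or library preparation plays a part in any list was not tested.

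**Figure D4:**
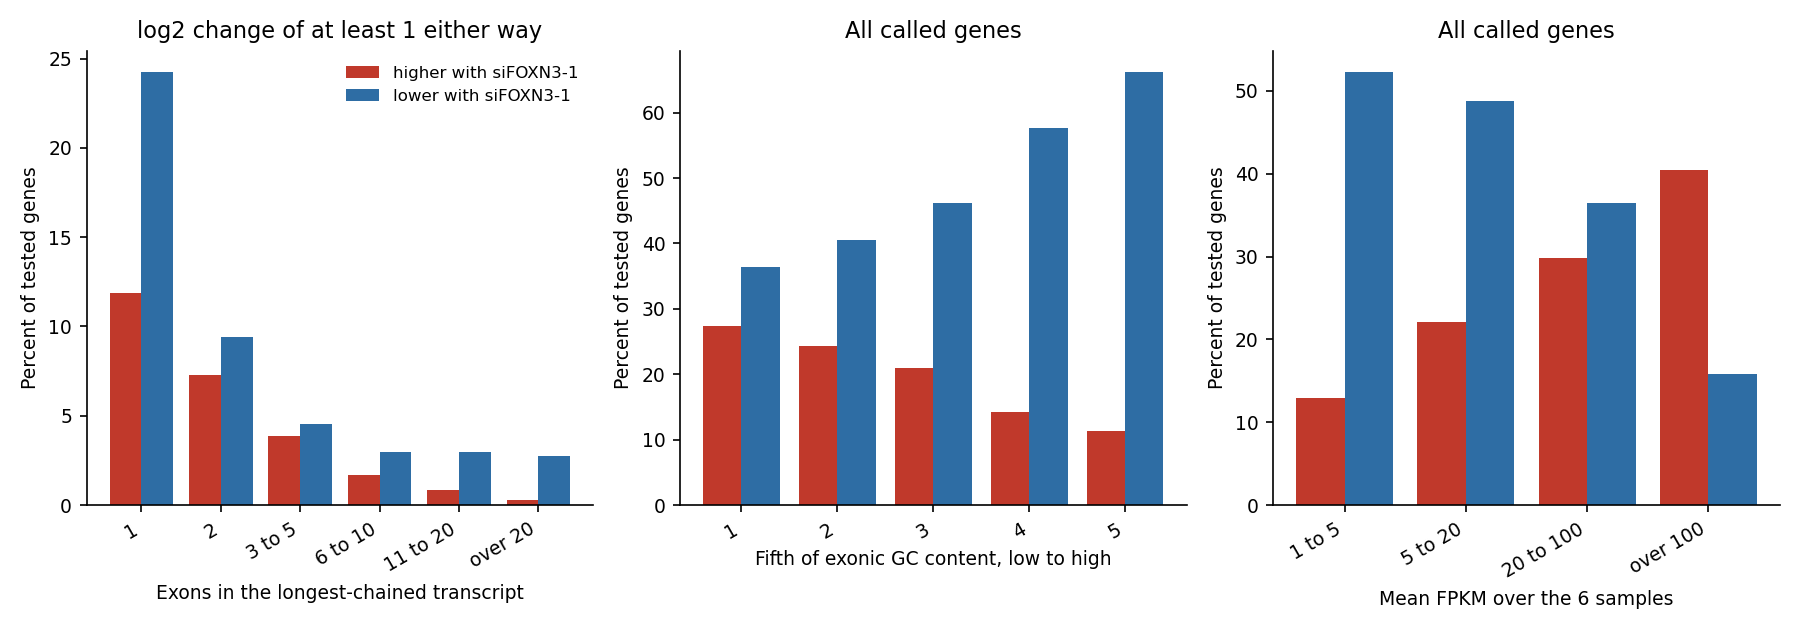
Percentage of tested genes called higher (red) or lower (blue) with siFOXN3-1. The left panel counts protein-coding genes with a log2 fold change of at least 1 either way by exon number, where single-exon genes reach 11.9% and 24.2%. Single-exon genes there include the 13 mitochondrially encoded messenger RNAs and many histone genes. The middle panel counts all called protein-coding genes in 5 equal groups by exonic GC content, and the right panel all called genes by mean FPKM.

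Among biotypes, processed pseudogenes had more higher than lower calls (104 and 86 of 440, median 0.05), and so did the misc_RNA class (18 and 10 of 61). Their short or copied sequences make assignments of reads uncertain. Long intergenic RNAs (64 higher and 170 lower of 376) and antisense genes (86 and 221 of 473) had medians of -0.29 and -0.30. Unprocessed pseudogenes with transcripts were lower in 85 of 142 cases and higher in 9.

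Whether a change belongs to siFOXN3-1 rather than to siRNAs against FOXN3 at large was asked by testing the siFOXN3-1 samples directly against the 3 samples titled siFOXN3-2, with no siControl sample in the fit. Although all 3 are titled siFOXN3-2, the treatment field reads siFOXN4 for replicate 2 and siFOXN5 for replicate 3, and the titles were followed. FOXN3 had 1.28, 1.24 and 1.16 FPKM with siFOXN3-1, against 0.858, 0.958 and 1.06 FPKM with siFOXN3-2 and was not called (log2 fold change 0.18, adjusted p = 0.170). Of 12339 genes tested 3722 (30.2%) were called, 1138 (9.22%) higher and 2584 (20.9%) lower with siFOXN3-1, and the groups did not overlap in 5719 genes (46.3%). Few differed by 1 or more, 34 genes higher (0.276%) and 13 lower (0.105%). Without siFOXN3-1 replicate 2, 1891 genes were called. The median was -0.08, and the split became 1623 higher and 1349 lower with median-ratio scaling. Of the called genes with a symbol, 2672 had also been called against siControl. The higher ones divided into 509 higher and 294 lower against siControl, the lower ones into 397 higher and 1472 lower.

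IL11, a cytokine of the interleukin-6 family, was among the largest differences. It had 10.8, 10.8 and 10.7 FPKM with siFOXN3-1, against 2.66, 2.66 and 2.69 FPKM with siFOXN3-2. Its siControl samples had 2.38, 2.73 and 2.60 FPKM. The siFOXN3-1 samples stood far above both other groups, and those of siFOXN3-2 lay within the siControl range. Of 9 tested cytokines and chemokines 7 were higher with siFOXN3-1 than with siFOXN3-2 and 1 lower, where 9.22% and 20.9% of all genes were. LIF averaged 73.7 ± 6.98 FPKM with siFOXN3-1, 34.9 ± 1.16 FPKM with siFOXN3-2 and 9.92 ± 1.43 FPKM with siControl. CXCL2 averaged 107 ± 16.8 FPKM with siFOXN3-1, 60.2 ± 6.76 FPKM with siFOXN3-2 and 67.4 ± 2.89 FPKM with siControl. For CXCL2 the siFOXN3-2 mean lay under that of siControl and the siFOXN3-1 mean above it.

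Matrix and adhesion genes stood on the same side. In the matrix list 12 of 22 genes were higher with siFOXN3-1 and 0 lower. MMP14, a membrane-bound collagenase, averaged 86.3 ± 6.36 FPKM with siFOXN3-1, 48.6 ± 0.319 FPKM with siFOXN3-2 and 47.2 ± 2.41 FPKM with siControl. MMP1 did not pass this test, at 39.8 ± 4.45 FPKM with siFOXN3-1, 39.8 ± 3.84 FPKM with siFOXN3-2 and 5.61 ± 0.299 FPKM with siControl. Of 19 integrin and laminin genes 10 were higher and 0 lower, with ITGA2, a collagen receptor chain, at 7.33 ± 0.600 FPKM with siFOXN3-1, 2.84 ± 0.439 FPKM with siFOXN3-2 and 6.12 ± 0.525 FPKM with siControl and ITGAV, of the vitronectin receptors, at 16.0 ± 1.49 FPKM with siFOXN3-1, 7.73 ± 0.721 FPKM with siFOXN3-2 and 15.7 ± 0.173 FPKM with siControl. Of 21 TGF-β genes 9 were higher and 2 lower. SMAD7, the feedback inhibitor of the pathway, averaged 5.88 ± 0.0763 FPKM with siFOXN3-1, 2.77 ± 0.277 FPKM with siFOXN3-2 and 4.26 ± 0.227 FPKM with siControl, above siControl with one siRNA and below it with the other.

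Sterol genes were lower with siFOXN3-1 than with siFOXN3-2 in 15 of 26 cases and higher in 0, where 20.9% of all genes were lower and 9.22% higher. INSIG1 averaged 301 ± 5.59 FPKM with siFOXN3-1, 398 ± 31.1 FPKM with siFOXN3-2 and 44.6 ± 0.813 FPKM with siControl, so both siRNAs were above siControl and siFOXN3-2 was further above it. Not all of the 15 had this order. SREBF1 averaged 36.9 ± 2.03 FPKM with siFOXN3-1, 49.0 ± 3.29 FPKM with siFOXN3-2 and 78.2 ± 1.17 FPKM with siControl. The means of TM7SF2, LSS and MVK were likewise under siControl with both siRNAs and lowest with siFOXN3-1. Checkpoint and fork genes were lower in 12 of 19 cases and higher in 1 (RNF168). TIMELESS averaged 10.3 ± 0.578 FPKM with siFOXN3-1, 16.6 ± 0.794 FPKM with siFOXN3-2 and 28.8 ± 0.405 FPKM with siControl. Others of the 12 were not lowered by siFOXN3-2. RAD17 averaged 5.85 ± 0.431 FPKM with siFOXN3-1, 9.58 ± 1.38 FPKM with siFOXN3-2 and 9.54 ± 0.335 FPKM with siControl. CHEK1, not called against siControl, averaged 8.57 ± 0.700 FPKM with siFOXN3-1, 10.6 ± 0.974 FPKM with siFOXN3-2 and 8.68 ± 0.436 FPKM with siControl. Mitochondrially encoded messenger RNAs had 0 higher and 0 lower of 13. Among the early genes, JUN (0.75), EGR1 (0.39) and DUSP5 (0.52) were higher with siFOXN3-1, while FOS (-0.09), HILPDA (0.10) and ADM (-0.06) were not called between the siRNAs.

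Other genes with large differences between the siRNAs were MTPN, SHMT2, APLP2, VCL, MFAP3 and ACP2. MTPN, the gene of myotrophin, which binds actin capping protein, had 78.6, 74.8 and 67.8 FPKM with siFOXN3-1, against 24.2, 29.4 and 29.1 FPKM with siFOXN3-2, with 50.3, 50.1 and 49.5 FPKM in siControl. SHMT2, the mitochondrial serine hydroxymethyltransferase, had 25.0, 25.9 and 26.1 FPKM with siFOXN3-1, against 9.02, 10.2 and 9.74 FPKM with siFOXN3-2. APLP2, an amyloid precursor-like protein, had 141, 133 and 128 FPKM with siFOXN3-1, against 56.0, 58.8 and 59.9 FPKM with siFOXN3-2. The siControl samples had 31.4, 28.1 and 30.7 FPKM for SHMT2 and 149, 151 and 148 FPKM for APLP2. Against siControl the siFOXN3-1 changes were -0.22 for SHMT2 and -0.15 for APLP2, and median-ratio scaling turned the sign for APLP2 (0.064). SLC25A5, the ADP/ATP carrier, which was not called against siControl, averaged 349 ± 30.2 FPKM with siFOXN3-1, 94.5 ± 11 FPKM with siFOXN3-2 and 308 ± 12.4 FPKM with siControl. On the lower side, VCL had 24.3, 25.1 and 23.6 FPKM with siFOXN3-1, against 52.0, 41.0 and 52.3 FPKM with siFOXN3-2, with 47.2, 53.8 and 51.2 FPKM in siControl. The siFOXN3-2 samples of VCL overlapped those of siControl, and the siFOXN3-1 samples lay under both. MFAP3, a microfibril-associated gene, had 1.88, 1.71 and 1.53 FPKM with siFOXN3-1, against 4.43, 3.52 and 4.81 FPKM with siFOXN3-2, with 4.77, 5.54 and 5.35 FPKM in siControl. ACP2 was lower with siFOXN3-1 than with siFOXN3-2 (0.961, 1.13 and 0.820 FPKM with siFOXN3-1, against 3.22, 3.53 and 3.24 FPKM with siFOXN3-2), both under siControl.

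**Figure D5:**
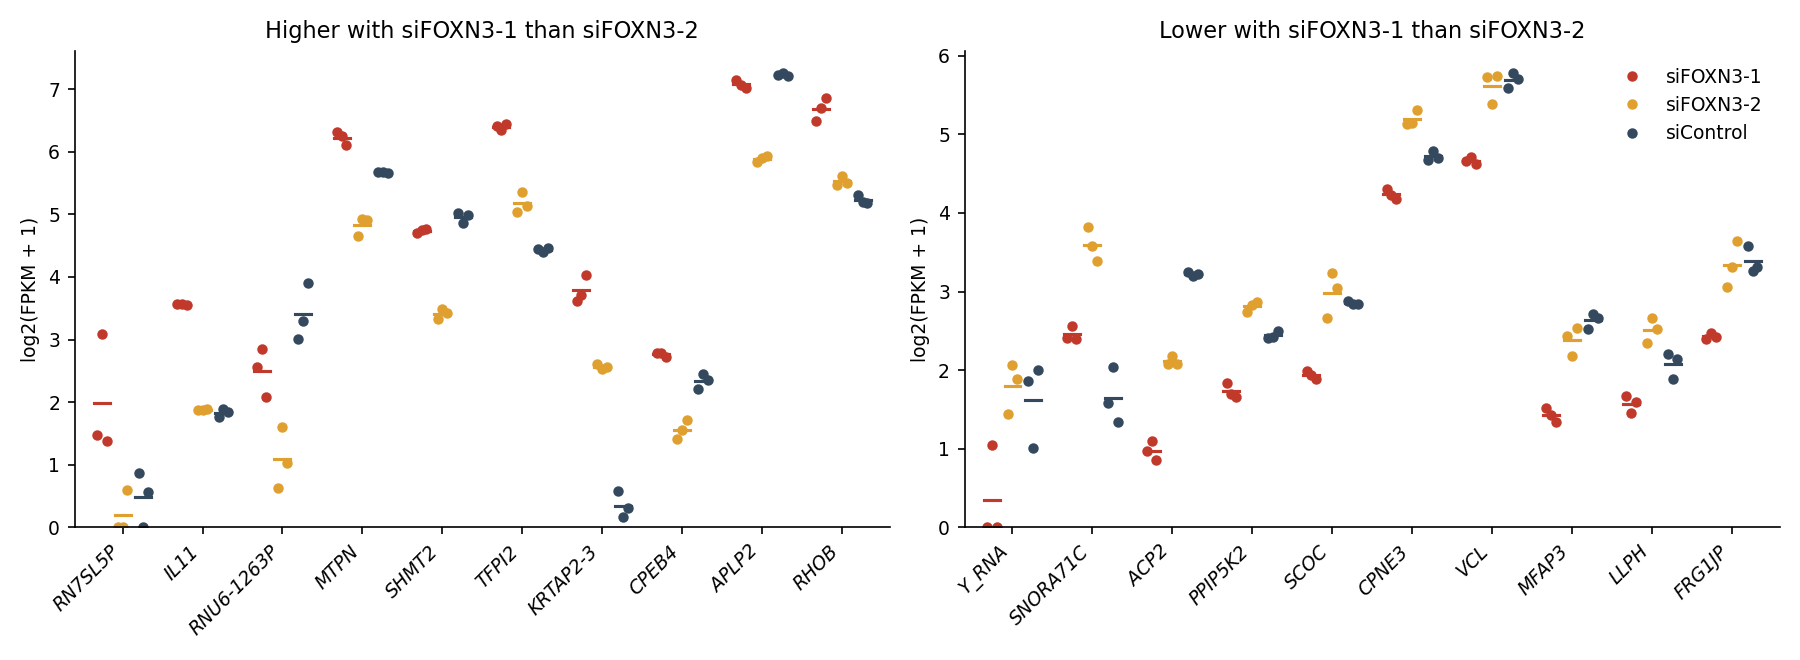
log2(FPKM + 1) in each of the 3 siFOXN3-1 (red), 3 siFOXN3-2 (orange) and 3 siControl samples (dark), with short lines at the means, for the 10 genes with the largest difference each way between the siRNAs that were also called against siControl. The siFOXN3-2 samples lie near siControl for IL11 and VCL and far under it for SHMT2 and APLP2.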

How the data were processed

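RNA-seq of polyadenylated RNA was deposited by the authors as 1 table of FPKM per gene and sample. Per the submitters' processing notes, fastp 0.14.0, HISAT2 2.1.0, StringTie 1.3.3b and the build GRCh38 were used, and the sources used here do not give options, annotation release or strand handling. Nothing was pooled, and the title of each sample gave its group.

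Genes whose mean over the 6 samples reached 1 FPKM were analysed as log2(FPKM + 1) with limma 3.58.1 in R 4.3.3 (empirical Bayes with a mean-variance trend, siFOXN3-1 and siControl samples only, Benjamini-Hochberg adjusted p under 0.05, two-sided), and the siRNAs were compared with each other in the same way. Low FPKM values were whole multiples of 1 fragment for 98.2 to 98.3% of genes (tolerance 0.05) with exon lengths of GENCODE 29, which gave the depths and reads for voom. Depth sets the precision of low genes only through the spread between samples. Same-numbered samples of the 2 groups had correlations of their deviations of -0.11, 0.05 and -0.03, so the numbers were not taken as pairs. Chi-square over degrees of freedom between replicates was 3.61 to 10.2 with siFOXN3-1 and 3.83 to 6.30 with siControl, so replicates differed by more than counting noise. These values cannot tell separate cultures from separate libraries of 1 culture. R also did the permutation test, Python 3.11.15 did the counts and the promoter matches, and the fit was tested on simulated data. Promoters are those of RefSeq (GRCh38.p14), matched by symbol.

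The comparison, the 86 gene lists and the tests were chosen with earlier results of these data known. Named were the title genes, the 15 largest rises and falls, the 8 largest gains and losses in FPKM, up to 10 genes near 0 in one group, up to 4 called members of each list each way, members that were not called, and the 10 largest differences each way between the siRNAs; further list members were named after their values were seen. Some genes and lists these rules cover are not reported here. Alternatives were another pseudocount, filter, scaling, voom, a replicate block and leaving out each sample.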

Additional observations from a re-analysis of the deposited data

Results flagged for a closer look

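Genes are described here whose 3 siFOXN3-1 samples all lay on one side of the 3 siControl samples while the 3 siFOXN3-2 samples all lay on the other side, and whose direct difference between the siRNAs passed limma's test. Genes chosen by the rule for named genes were looked at. Values are log2 differences of siFOXN3-1 minus siFOXN3-2 with 3 samples in each group, and the treatment field of siFOXN3-2 replicates 2 and 3 holds other names.

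Above siControl with siFOXN3-1 and below it with siFOXN3-2 were 10 genes. BLOC1S6, a subunit of the BLOC-1 complex, was at 11 to 12.8 FPKM with siFOXN3-1, 6.30 to 7.88 FPKM with siFOXN3-2 and 9.33 to 10.2 FPKM with siControl (0.60). CCND1, cyclin D1, was at 115 to 122 FPKM with siFOXN3-1, 55.6 to 63.3 FPKM with siFOXN3-2 and 71.5 to 79.4 FPKM with siControl (1.02). CPEB4, a cytoplasmic polyadenylation factor, was at 5.61 to 5.93 FPKM with siFOXN3-1, 1.67 to 2.27 FPKM with siFOXN3-2 and 3.65 to 4.45 FPKM with siControl (1.21). KIF3C, a kinesin motor, was at 13.4 to 15.1 FPKM with siFOXN3-1, 8.69 to 10.7 FPKM with siFOXN3-2 and 11 to 12.9 FPKM with siControl (0.49). LAMB3, a laminin chain, was at 39.2 to 43.0 FPKM with siFOXN3-1, 22.8 to 23.5 FPKM with siFOXN3-2 and 27.5 to 30.0 FPKM with siControl (0.81). MTPN, myotrophin, was at 67.8 to 78.6 FPKM with siFOXN3-1, 24.2 to 29.4 FPKM with siFOXN3-2 and 49.5 to 50.3 FPKM with siControl (1.39). SLC30A1, a zinc exporter, was at 7.94 to 9.04 FPKM with siFOXN3-1, 5.29 to 6.02 FPKM with siFOXN3-2 and 6.35 to 7.30 FPKM with siControl (0.52). SMAD7, the TGF-β feedback inhibitor, was at 5.79 to 5.94 FPKM with siFOXN3-1, 2.47 to 3.01 FPKM with siFOXN3-2 and 4.04 to 4.50 FPKM with siControl (0.87). STAG2, a cohesin subunit, was at 20.2 to 22.3 FPKM with siFOXN3-1, 11.6 to 13.9 FPKM with siFOXN3-2 and 17.8 to 19.2 FPKM with siControl (0.70). TRIM37, a TRIM ubiquitin ligase, was at 21.6 to 25.1 FPKM with siFOXN3-1, 12.9 to 14.3 FPKM with siFOXN3-2 and 19.6 to 20.7 FPKM with siControl (0.76).

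Below siControl with siFOXN3-1 and above it with siFOXN3-2 were 4 genes. CPNE3, a copine, was at 17.1 to 18.7 FPKM with siFOXN3-1, 34.2 to 38.8 FPKM with siFOXN3-2 and 24.5 to 26.5 FPKM with siControl (-0.96). LLPH, a ribosome biogenesis gene, was at 1.74 to 2.19 FPKM with siFOXN3-1, 4.08 to 5.33 FPKM with siFOXN3-2 and 2.71 to 3.62 FPKM with siControl (-0.94). PPIP5K2, an inositol pyrophosphate kinase, was at 2.15 to 2.57 FPKM with siFOXN3-1, 5.71 to 6.31 FPKM with siFOXN3-2 and 4.32 to 4.64 FPKM with siControl (-1.08). SLC39A8, a zinc and manganese importer, was at 9.16 to 10.5 FPKM with siFOXN3-1, 15.6 to 16.1 FPKM with siFOXN3-2 and 14.6 to 15.4 FPKM with siControl (-0.66).

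Among 12072 genes tested against siControl and against siFOXN3-2, 86 that were called in both tests lay above every siControl sample with siFOXN3-1 and below every one with siFOXN3-2, and 176 lay the other way round.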

How the results depend on the processing

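Of 172 counts of list members, 69 moved by over 1.5 times under median-ratio scaling, 47 under quantile normalization, 51 with a mean of at least 5 FPKM required and 23 with no filter; 0 to 11 did under each other alternative. Counts per list between the siRNAs were taken as deposited only. Over all tested genes, all list members together and all single-exon genes, counts against siControl stayed within 1.5 times of those reported except in these cases. With a mean of at least 5 FPKM required, 4961 genes were called (8612 reported), 3150 of them lower (6091), with 1126 list members (1719) and 57 single-exon genes called lower (117); fewer genes are tested there, and FOXN3 is not among them. Median-ratio scaling gave 4198 higher calls (2521). Between the siRNAs, no filter on the mean gave 2140 calls (3722), 704 higher (1138) and 1436 lower (2584). Lower calls there were 1349 with median-ratio scaling, 1577 with quantile normalization and 1636 with the replicate block. The cause of these shifts was not tested. Leaving out 1 sample at a time gave 7758 to 8519 calls against siControl, 2247 to 2414 higher and 5422 to 6127 lower, 1539 to 1735 list members, 104 to 115 single-exon genes called lower, and a FOXN3 change of -1.46 to -1.41. Between the siRNAs it gave 1891 to 3327 calls, 638 to 1003 higher and 1253 to 2324 lower, each lowest value without siFOXN3-1 replicate 2. With the replicate number as a block, 8258 genes were called against siControl and 2485 between the siRNAs. Median-ratio scaling reversed APLP2 (0.064), TCF3 (0.074), DNAJA1 (0.0082), HSF1 (0.014) and RPS26 (0.0015), and quantile normalization reversed KRT18 (-0.0047). Among 620 named genes, calls that kept their direction and no longer passed the test numbered 20 under median-ratio scaling, 23 under quantile normalization, 31 with no filter, 13 with the replicate block, 11 to 23 without 1 sample, and 0 to 11 under the other alternatives. FOXN3 ranged to -2.04 under voom. Depth limits what can be said of genes under 1 FPKM.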
